A study of Mus musculus with 6 samples.

Results

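The lamellar body and surfactant handling genes are 10 genes of the alveolar type II cell that make, load, trim or recycle pulmonary surfactant or mark the cells that do so: Abca3, Lpcat1, Lamp3, Napsa, Ctsh, Slc34a2, Prdx6, Muc1, S100g and Cxcl15. They were chosen by name, with earlier results of these data known. Every probe set whose only gene symbol in the platform annotation was one of them was taken. This gave 17 probe sets for 8 genes, of 34945 such probe sets for 18193 genes in the series. Lamp3 had 1 probe set, which it shares with another gene, and Prdx6 had none under its symbol, so neither was analysed here. All 8 measured genes were bright enough to be tested, among 10972 genes tested.

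The arrays read total RNA of whole mouse lung at E18.5, shortly before birth. The Scap_ko group held 3 samples in which Scap, the gene of SREBP cleavage-activating protein, had been deleted in vivo in the respiratory epithelium (Scap d/d). The Scap_control group held 3 samples described as control. All 6 came from mice of a mixed FVB/N and B6 background, and the labels do not state the promoter that drives the deletion, the alleles the controls carry or any pooling of animals. Nor do they state that the replicates were separate animals, so every p reflects the spread between samples that may be technical.

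Scap escorts SREBP transcription factors out of the endoplasmic reticulum to the Golgi for cleavage, after which they enter the nucleus and induce the enzymes of cholesterol and fatty acid synthesis. Surfactant phospholipid, mostly phosphatidylcholine, is made in type II cells, remodelled by an acyltransferase, pumped into lamellar bodies by a transporter in their limiting membrane, and packed there with the hydrophobic surfactant proteins, whose precursors are cut by proteases on the way. The lamellar bodies are secreted at birth and spread as the film that keeps the air spaces open. The question asked here was which of these steps had transcripts at a different level when Scap was missing from the epithelium.

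Median array signals lay between 498.5 and 513 in Scap_ko and between 490.9 and 530.5 in Scap_control lungs, and correlations between arrays between 0.969 and 0.984. The arrays numbered 3 of both groups stood apart from the other 4 on the first principal component, which held 36.6% of the variance, and values without them are given where they matter. The targeted transcript Scap read 1847, 3286 and 2702 in Scap_ko and 7264, 4195 and 3079.7 in Scap_control lungs, and the groups overlapped (exact two-sided permutation p = 0.2). With 3 arrays a side this test cannot go below 0.1. Scap stood at 55.9% of control (log2 difference -0.84, SE 0.33, limma adjusted p = 0.808). The log2 difference was -1.16 without both arrays numbered 3 (limma adjusted p = 0.6) and -0.50 without Scap_control replicate 1. A dimmer Scap probe set read 221.1, 325.2 and 169.5 in Scap_ko and 587.1, 648.4 and 74 in Scap_control lungs, also overlapping. Lung markers were high in both groups: Sftpc, which defines type II cells, read 90211 to 101524 in Scap_ko and 80059.6 to 106271 in Scap_control lungs. In the text, signal is the deposited linear unit, log2 differences are Scap_ko minus Scap_control with limma's standard error (SE), intervals are 95%, and adjusted p is Benjamini-Hochberg over all 10972 genes tested. Exact p is from a two-sided permutation test. Precision is limited by the number of arrays.

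The 8 measured genes differed in how far they read from control, and none passed the test. Lpcat1, the surfactant acyltransferase, stood at 75.03% of control and Abca3, the phospholipid transporter, at 63.9%. The proteases Ctsh and Napsa stood at 98.2% and 100.3%. No member passed an adjusted p of 0.05, and of all genes tested 1 did, 0.00911%. At an unadjusted p of 0.05, 2 of the 8 read lower and 0 higher, where 3.04% of all genes tested read lower and 2.88% higher. The log2 difference was negative in 6 of 8 members, against 48.3% of all genes tested. That count was 4 of 8 without Scap_control replicate 3, and 8 of 8 without Scap_ko replicate 3 or Scap_control replicate 2. Over the 8 genes the median was 93.5% of control, beside 100.4% over all genes tested. Because the members were chosen with earlier results of these data known, these counts and shares are a description and not independent evidence.

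**Figure D1:**
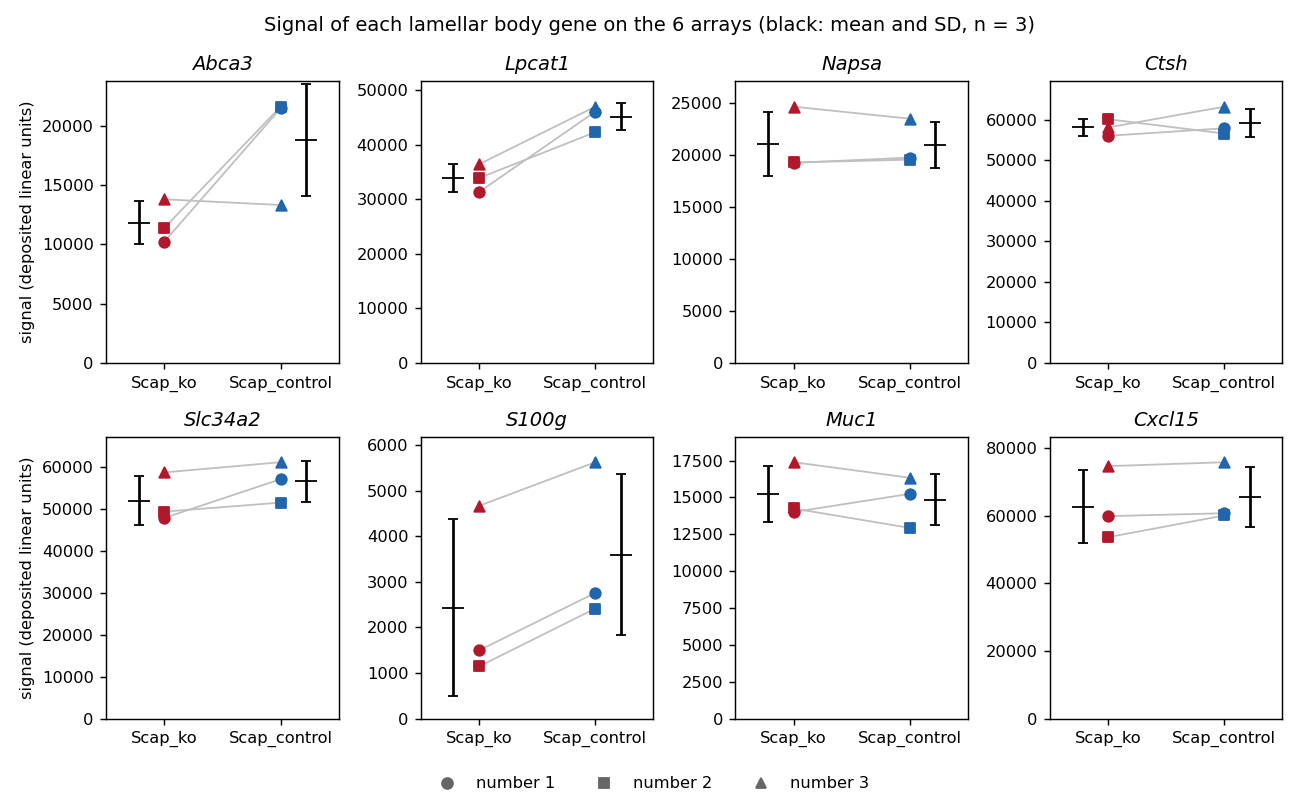
Signal (linear, as deposited) of the 8 measured genes, each by its brightest probe set, on the 3 Scap_ko (red, left) and 3 Scap_control arrays (blue, right). Grey lines join arrays of the same number and black marks give the mean and SD (n = 3). Every Scap_ko array lies below every Scap_control array for Lpcat1, and for S100g both arrays numbered 3 lie far above the others of their group.

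Lpcat1 encodes lysophosphatidylcholine acyltransferase, which attaches a palmitate to lysophosphatidylcholine and so makes the saturated phosphatidylcholine of surfactant. Its brightest probe set read 31287, 33856 and 36378 in Scap_ko lungs, against 46006, 42258 and 46923 in Scap_control lungs. All 3 Scap_ko arrays lay below all 3 Scap_control arrays. Of the 8 members it alone had groups that did not overlap with Scap_ko lower, a pattern found in 5.72% of all genes tested (6.11% had Scap_ko higher, and no member did). The means were 33840.3 ± 2546 in Scap_ko and 45062 ± 2472 in Scap_control lungs (SD, n = 3 each), a log2 difference of -0.41 (SE 0.10, exact p = 0.1, limma adjusted p = 0.671). It ranked 62 by limma p among all genes tested. The interval ran from 63.8% to 88.2% of control. It stayed at an unadjusted limma p of 0.05 under each of the 16 other settings tried, with log2 differences between -0.51 and -0.36, and its adjusted p passed under none of them.

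The other 4 Lpcat1 probe sets read lower as well, each in all 3 pairs of same-numbered arrays. Of all genes tested, each by its brightest probe set, 15.3% did so, and the share over all probe sets was not computed. The 3 bright Lpcat1 probe sets were designed on 1 shared sequence. All 5 read the same samples, so their agreement is not independent support. The next brightest read 27773, 33206 and 34594 in Scap_ko lungs, against 42306, 34188.5 and 40190.7 in Scap_control lungs, or 81.9% of control, with the groups overlapping. Another read 15229, 16039 and 21050.5 in Scap_ko lungs, against 23895, 23434 and 21474.5 in Scap_control lungs, or 75.3% of control, and these groups did not overlap, as for 6.35% of all probe sets with Scap_ko lower. The remaining pair of probe sets, both designed on 1 expressed sequence tag, lay below the brightness limit of 497.8. One of them read 344.9, 203 and 454.3 in Scap_ko lungs, against 1020.4, 668.3 and 656.3 in Scap_control lungs. The groups were apart, at 41.4% of control, with an interval from 22.2% to 77.4% in a limma fit over all probe sets. The dimmer one read 130.5 to 227.5 in Scap_ko and 173.2 to 383.3 in Scap_control lungs. In a limma fit over all 45037 probe sets none of the 5 passed, with adjusted p from 0.846 to 0.975, and 0 of all probe sets did (2390 at an unadjusted p of 0.05).

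Abca3 is the ATP-binding cassette transporter that moves phosphatidylcholine and phosphatidylglycerol into the lamellar body, and mice or infants that lack it form no normal lamellar bodies. Its brightest probe set read 10244, 11399.7 and 13801 in Scap_ko lungs, against 21471, 21610.0 and 13322 in Scap_control lungs. Scap_control array 3 lay between Scap_ko arrays 2 and 3, so the groups overlapped, while the other Scap_control arrays lay above all Scap_ko arrays. The means were 11815 ± 1814 in Scap_ko and 18801 ± 4746 in Scap_control lungs (SD, n = 3 each), a log2 difference of -0.65 (SE 0.21, exact p = 0.2, limma adjusted p = 0.739). The interval ran from 45.5% to 89.8% of control. Between arrays of the same number the log2 difference was -1.07, -0.92 and 0.05 for numbers 1, 2 and 3. Without both arrays numbered 3 it was -0.995 (limma adjusted p = 0.199). It was no longer at an unadjusted p of 0.05 without Scap_ko replicate 1 (log2 difference -0.55), Scap_control replicate 1 (-0.53) or Scap_control replicate 2 (-0.53).

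The 3 Abca3 probe sets did not all run the same way. The second read 4872, 4702 and 6518 in Scap_ko lungs, against 9422, 9605 and 5702 in Scap_control lungs, at 66.1% of control and with Scap_control array 3 again the low one. Both of these probe sets were designed on the same cDNA. The remaining one, designed on another cDNA, read 1462, 2337 and 1656 in Scap_ko lungs, against 1080.2, 1761 and 1738 in Scap_control lungs. It stood at 119.6% of control, with an interval from 72.8% to 196.3% in the limma fit over all 45037 probe sets. In that fit the interval of the brightest Abca3 probe set was 41.4% to 98.6%. The log2 ratio of the brightest to this probe set was lower by 0.90 in Scap_ko lungs (log2 difference -0.90), with an exact permutation p = 0.2 (adjusted p = 0.467 over the 7 such probe set pairs). With all probe sets above the brightness limit averaged, Abca3 had a log2 difference of -0.33 (limma adjusted p = 0.879). The sources used here do not say which transcript each probe set reads.

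The reference DNA ahead of these transcripts is shown because Scap acts through SREBP factors, which bind sterol regulatory elements. For the 7 members with a promoter in the RefSeq table of GRCm38.p6, the 250 bases before the transcript start were searched on both strands for 5 motifs. These were the sterol regulatory element TCACNCCAC, the E-box CACGTG, the NKX2-1 site CACTTG, the FOXA site TGTTTNC and the C/EBP site TTNNGNAA, with N any base. A match is a description and not a bound site. Abca3 held the sterol regulatory element once, on its own strand at positions -225 to -217 from the transcript start, and no other motif. A match to it was held by 1.05% of the 32851 promoters of that length. The other 6 members searched held none. The transcript start used for Abca3 lies 102 bases inside the annotated gene, and the positions count from that start. The sequence of Abca3 is printed only for the 148 bases before the annotated gene, at chr17:24351773-24351920 on the plus strand. That of Lpcat1 is chr13:73466981-73467230, also on the plus strand, and these letters hold none of the 5 motifs. Both run 5′ to 3′ in lower case with motif matches in capitals.
Abca3: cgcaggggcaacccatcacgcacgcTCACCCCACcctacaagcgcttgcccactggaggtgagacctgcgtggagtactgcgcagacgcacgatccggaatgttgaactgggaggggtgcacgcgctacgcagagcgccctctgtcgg
Lpcat1: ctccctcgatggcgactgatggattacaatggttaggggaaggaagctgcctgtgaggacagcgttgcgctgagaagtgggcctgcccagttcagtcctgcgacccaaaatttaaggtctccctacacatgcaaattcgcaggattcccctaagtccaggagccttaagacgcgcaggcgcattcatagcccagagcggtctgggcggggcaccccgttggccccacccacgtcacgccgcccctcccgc

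**Figure D2:**
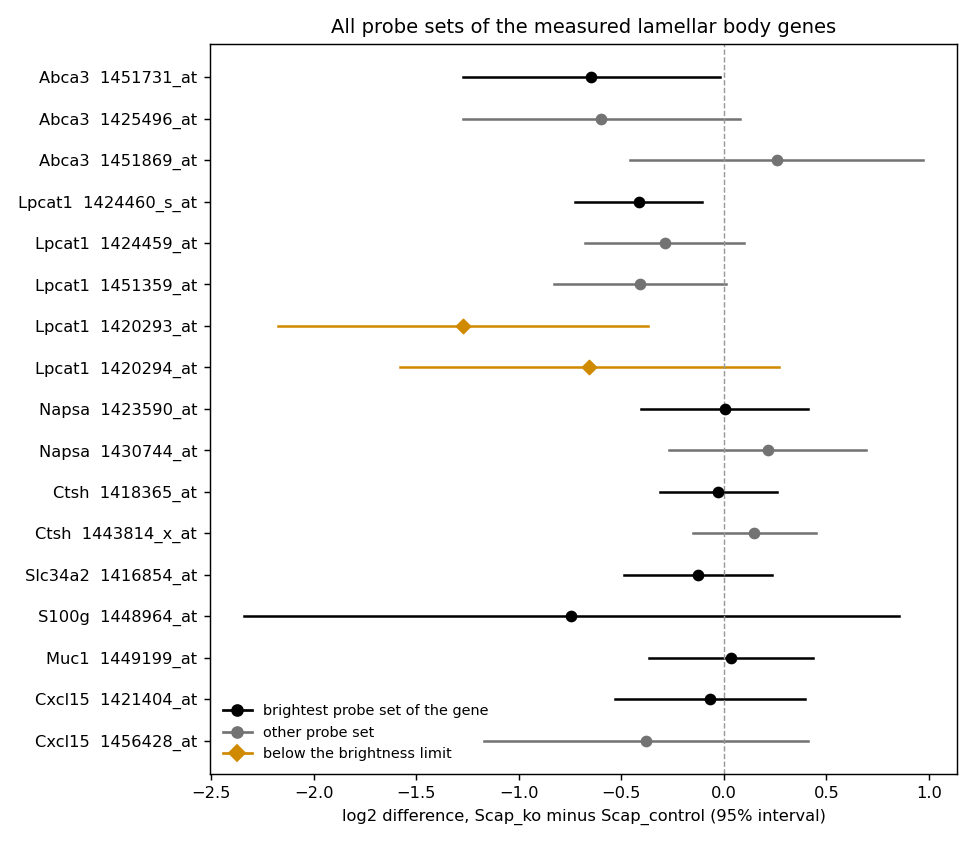
Log2 difference, Scap_ko minus Scap_control, with its 95% interval for all 17 probe sets, from a limma fit over all 45037 probe sets. All 5 Lpcat1 probe sets lie left of 0, while the Abca3 probe sets lie at -0.65, -0.60 and 0.26.

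The members that mature the surfactant proteins showed no difference beyond the spread between arrays. Ctsh encodes cathepsin H, a protease that takes part in cutting the precursors of surfactant proteins B and C. It read 55997, 60084 and 58056 in Scap_ko lungs, against 57842, 56541.5 and 63170.2 in Scap_control lungs. The groups overlapped (log2 difference -0.03, SE 0.09, limma adjusted p = 0.986), with an interval from 84.6% to 113.9% of control. Its other probe set read 39697, 40077 and 40175 in Scap_ko lungs, against 34299, 34336.5 and 39765 in Scap_control lungs, higher in all 3 pairs and at 110.9% of control. The direction for Ctsh therefore depends on the probe set, and it was 0.06 with both averaged. The log2 ratio of the first to the second probe set was lower by 0.18 (log2 difference -0.18) in Scap_ko lungs, with an exact permutation p of 0.1, the smallest possible, and an adjusted p of 0.467.

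Napsa encodes napsin A, an aspartic protease of type II cells that acts on the precursor of surfactant protein B. It read 19261, 19297 and 24666 in Scap_ko lungs, against 19764, 19570.1 and 23507 in Scap_control lungs. In each group array 3 was high and the other arrays were alike. The log2 difference was 0.004 (SE 0.14, limma adjusted p = 0.999) with an interval from 80.6% to 124.8% of control, and its sign turned under 5 other settings. A dimmer Napsa probe set read 861.7, 1146 and 1221 in Scap_ko lungs, against 820, 1051 and 894.9 in Scap_control lungs. It was higher in all 3 pairs, at 116.1% of control, with overlapping groups.

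Slc34a2 encodes the sodium-phosphate cotransporter of the apical membrane, which takes up phosphate freed from surfactant phospholipid. It read 47821, 49311 and 58665 in Scap_ko lungs, against 57045, 51470.4 and 61089.9 in Scap_control lungs. Each Scap_ko array was below the Scap_control array of its number, a pattern found in 15.3% of all genes tested, and the groups overlapped. The means were 51933 ± 5878 in Scap_ko and 56535 ± 4830.0 in Scap_control lungs, a log2 difference of -0.12 (SE 0.12, limma adjusted p = 0.931). The interval ran from 75.7% to 111.1% of control. Whether the signal is compressed at the brightness of Ctsh, Slc34a2 and Cxcl15 was not tested.

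S100g encodes calbindin-D9k, a small cytosolic calcium-binding protein better known from intestine and uterus, and among the 8 members it had the lowest log2 difference and the widest spread. It read 1496.5, 1145 and 4668 in Scap_ko lungs, against 2758, 2414.5 and 5626 in Scap_control lungs. Arrays numbered 3 read highest in both groups, by 1.83 log2 units over the mean of the other arrays in Scap_ko and by 1.12 in Scap_control lungs. The means were 2436 ± 1940.4 in Scap_ko and 3599.6 ± 1764 in Scap_control lungs, a log2 difference of -0.74 (SE 0.54, exact p = 0.4, limma adjusted p = 0.901). The interval, from 24.9% to 143.5% of control, did not fix a direction.

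Within same-numbered pairs S100g was lower each time, as were 15.3% of all genes tested. Its log2 differences were -0.88, -1.08 and -0.27 for numbers 1, 2 and 3. With the replicate number as a block its SE was 0.17 (limma adjusted p = 0.361), and the number of members lower at an unadjusted p of 0.05 became 3 with S100g among them, where 4.52% of all genes tested were lower and 4.18% higher. Single arrays moved the value. The log2 difference was -1.35 without Scap_ko replicate 3, -0.34 without Scap_ko replicate 2 and -0.37 without Scap_control replicate 3. Without both arrays numbered 3 it was -0.98 (limma adjusted p = 0.33).

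The promoter of S100g is shown beside that of Slc34a2, since both held matches to the C/EBP motif, which 36.8% of all those promoters hold. C/EBPα is a regulator of type II cell maturation. S100g held 5 C/EBP matches, of which the ones at -79 to -72 and -78 to -71 overlap each other, and 1 FOXA match at -47 to -41. FOXA matches were found in 17.8% of all promoters. Slc34a2 held 1 C/EBP match at -48 to -41. The share of 36.8% counts promoters with at least 1 match, and no share was computed for 5. The motif fixes mostly A and T, and these 250 bases were 38.4% G or C for S100g and 69.6% for Slc34a2. The sequence of S100g is chrX:162964600-162964849 on the minus strand and that of Slc34a2 is chr5:53049103-53049352 on the plus strand of GRCm38.p6, each the 250 bases before the start, with motif matches in capitals.
S100g: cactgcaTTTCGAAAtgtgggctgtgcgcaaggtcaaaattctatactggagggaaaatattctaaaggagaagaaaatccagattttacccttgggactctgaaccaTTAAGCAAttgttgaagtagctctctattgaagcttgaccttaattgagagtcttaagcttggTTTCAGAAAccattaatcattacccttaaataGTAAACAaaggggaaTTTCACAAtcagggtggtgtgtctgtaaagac
Slc34a2: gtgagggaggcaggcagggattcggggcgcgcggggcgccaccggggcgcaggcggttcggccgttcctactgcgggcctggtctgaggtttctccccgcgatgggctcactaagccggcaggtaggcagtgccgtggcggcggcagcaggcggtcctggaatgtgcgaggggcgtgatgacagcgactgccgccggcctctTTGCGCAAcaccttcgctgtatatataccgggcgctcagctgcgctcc

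The last members mark the apical surface and the secretions of these cells. Muc1 encodes a membrane mucin of the apical surface. It read 14011, 14252 and 17390.2 in Scap_ko lungs, against 15244, 12935 and 16338 in Scap_control lungs. The groups overlapped (log2 difference 0.04, SE 0.13, limma adjusted p = 0.987), with an interval from 82.8% to 127% of control. Cxcl15 encodes lungkine, a neutrophil-attracting chemokine made by mouse lung epithelium. It read 59908, 53681 and 74711 in Scap_ko lungs, against 60784, 60128 and 75875 in Scap_control lungs. Arrays numbered 3 stood above the rest of both groups (log2 difference -0.07, SE 0.15, limma adjusted p = 0.982), and the interval ran from 74.3% to 122.4% of control.

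A second Cxcl15 probe set gave a larger difference. It read 29966, 26383 and 52010.3 in Scap_ko lungs, against 39640.3, 40133 and 56659 in Scap_control lungs. The array numbered 3 was again the high one in each group, and Scap_ko was lower in all 3 pairs, at 77.0% of control. Its interval in the limma fit over all probe sets was 44.5% to 133.1%. Of all genes tested, each by its brightest probe set, 15.3% were lower in all 3 pairs, and the share over all probe sets was not computed. The promoters of Muc1 and Cxcl15 held none of the 5 motifs.

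**Figure D3:**
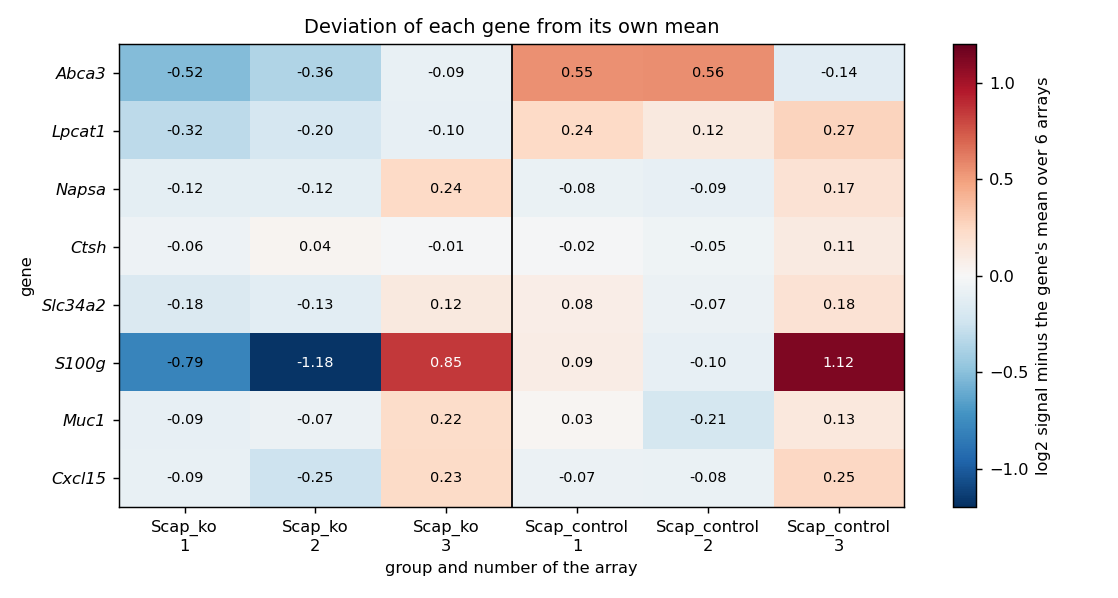
Log2 signal of each gene minus its own mean over the 6 arrays, with Scap_ko arrays left of the line and Scap_control arrays right of it. Abca3 reads 0.55 and 0.56 on Scap_control arrays 1 and 2 and -0.14 on Scap_control array 3, while the other 7 genes read higher on Scap_control array 3 than the mean of the other Scap_control arrays.

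For Napsa, Slc34a2, Muc1, S100g and Cxcl15 the arrays numbered 3 differed from the others of their group by more than the groups differed from each other. Scap_ko array 3 exceeded the mean of the other Scap_ko arrays in all 8 genes, by 0.0013 (Ctsh) to 1.83 log2 units (S100g). Scap_control array 3 did so in 7 of 8, by 0.09 (Lpcat1) to 1.12 (S100g), and Abca3 was the exception at -0.69. The same difference for the median gene of all tested was 0.01 in Scap_ko and 0.04 in Scap_control lungs. The summed signal of the 8 members was 240025, 243026 and 288334 in Scap_ko lungs, against 280913, 266927 and 305851 in Scap_control lungs. The median log2 difference of the members, -0.10, became -0.21 without Scap_ko replicate 3, -0.16 without Scap_control replicate 2, -0.06 without Scap_ko replicate 1 and -0.02 without Scap_control replicate 3. The count of 2 members lower at an unadjusted p of 0.05 became 1 without Scap_ko replicate 1, Scap_control replicate 1 or Scap_control replicate 2, and 3 without Scap_ko replicate 3. Among all 10972 genes tested, 650 were at that p in either direction, and this became 541, 538, 679 and 766 in the same order. The member counts thus moved along with those of all genes.

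General epithelial markers were not lower as a set. Of 15 tested general lung epithelium genes 12 had positive log2 differences, against 5676 of all 10972 genes tested, and the median gene stood at 107% of control. Nkx2-1, Foxa1 and Foxa2 are on this list and also on that of the regulators below. Their summed signal was 136779 to 141790 in Scap_ko lungs and 129222 to 135187 in Scap_control lungs. Relative to the mean of this list on each array, Lpcat1 had a log2 difference of -0.51 (limma adjusted p = 0.419) and Abca3 one of -0.74 (adjusted p = 0.491). Members of the list split: Epcam, an epithelial adhesion molecule, stood at 77.3% of control, and the claudins Cldn4 and Cldn7 at 135.9% and 115.9%, all with adjusted p from 0.731 to 0.831. In whole lung, fewer cells of a type and less RNA per cell cannot be told apart.

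Of the surfactant proteins, the cargo of the same organelle, 3 of 4 had negative log2 differences, the median gene stood at 83.0% of control, and 2 were lower at an unadjusted p of 0.05. Their median log2 difference, -0.27, was -0.42 without Scap_ko replicate 3, -0.17 without Scap_ko replicate 1 and -0.12 without Scap_control replicate 3. Sftpa1, surfactant protein A, read 14767, 12965 and 35042 in Scap_ko lungs, against 39988, 36559 and 48755 in Scap_control lungs, and its array 3 was high in each group as for S100g. Sftpb stood at 76.5%, Sftpd at 90.05% and Sftpc at 100.6% of control. So within each set values ranged widely: log2 differences ran from -0.74 to 0.04 among the 8 members and from -1.14 to 0.01 among the surfactant proteins. No test of the difference between these lists was made.

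**Figure D4:**
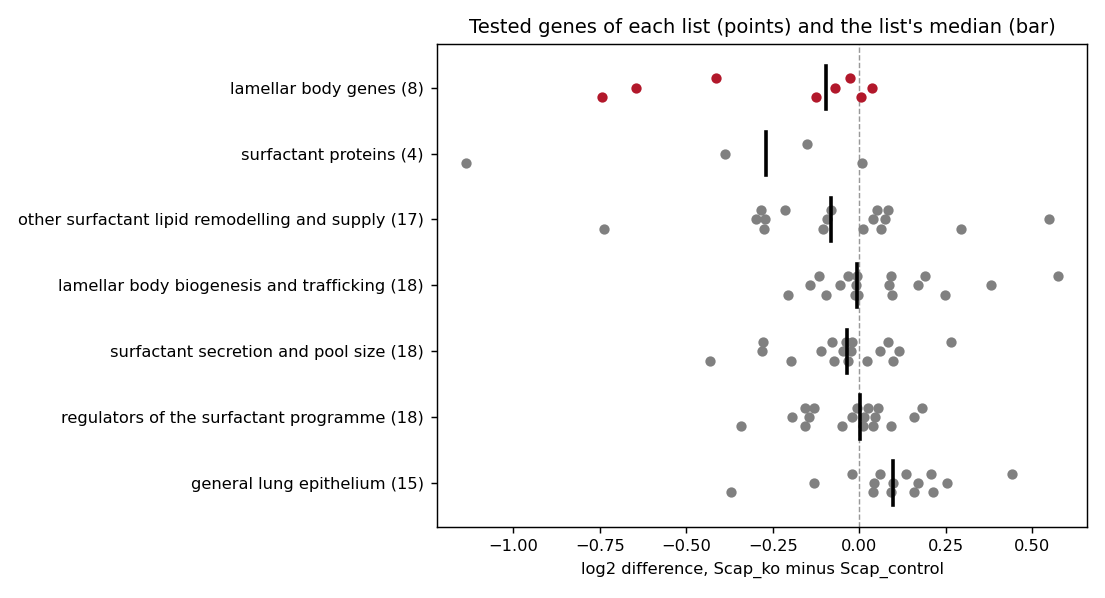
Log2 difference, Scap_ko minus Scap_control, of every tested gene (points) and the median (bar) for the lamellar body genes, 5 related lists and general lung epithelium, with the number of tested genes in brackets. The medians lie between -0.27 for surfactant proteins and 0.10 for general lung epithelium.

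The other genes of surfactant lipid remodelling and supply were mixed, with 9 of 17 tested genes negative and the median gene at 94.55% of control. At an unadjusted p of 0.05, 3 were lower and 2 higher (2 lower and 1 higher with the replicate block), and 0 passed when adjusted. The median log2 difference, -0.081, was -0.022 without Scap_ko replicate 2, -0.044 without Scap_control replicate 3 and -0.14 without Scap_control replicate 2. Fabp5, a carrier of fatty acids in the cytosol, read 29996, 30583 and 45124 in Scap_ko lungs, against 57567, 48832 and 68335 in Scap_control lungs. All Scap_ko arrays lay below all Scap_control arrays (log2 difference -0.74, SE 0.19, exact p = 0.1, limma adjusted p = 0.731). Gpam, the mitochondrial enzyme of the first acylation step in glycerolipid synthesis, stood at 82.1%. A pair of phospholipases ran the other way: Pla2g15, a lysosomal enzyme that degrades surfactant phospholipid in alveolar macrophages, stood at 122.7%, and Pla2g1b, a secreted phospholipase, at 146.1%. Pcyt1a, the rate-setting enzyme of phosphatidylcholine synthesis, stood at 93.7% of control and was picked after its value was seen.

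Genes of lamellar body biogenesis and trafficking showed little shift: 10 of 18 tested genes were negative, and the median gene stood at 99.6% of control. These include the Hermansky-Pudlak syndrome proteins and the AP-3 adaptor, which sort cargo to lysosome-related organelles. At an unadjusted p of 0.05, 0 were lower and 1 was higher. That gene, Rab32, a small GTPase of lysosome-related organelles, read 1552.5, 1794 and 1653 in Scap_ko lungs, against 982.9, 1115 and 1273 in Scap_control lungs. All Scap_ko arrays lay above all Scap_control arrays (log2 difference 0.57, SE 0.12, exact p = 0.1, limma adjusted p = 0.671).

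Of the genes of surfactant secretion and pool size, 12 of 18 tested genes were negative, the median gene stood at 97.6% of control, and at an unadjusted p of 0.05 1 was lower and 0 higher (2 lower and 1 higher with the replicate block). Rab27b, a GTPase of regulated secretion, read 2053, 2201 and 2932.5 in Scap_ko lungs, against 3236, 2961 and 3393.5 in Scap_control lungs, at 74.1% of control (exact p = 0.1, limma adjusted p = 0.765), with no overlap of the groups. Of the regulators of the surfactant programme 9 of 18 were negative, the median gene stood at 100.1% of control, and 0 were at an unadjusted p of 0.05, against 1 with the replicate block, Cebpa. It had the smallest p among them (78.9% of control, exact p = 0.2, limma adjusted p = 0.849). Nkx2-1, the factor that specifies lung epithelium, stood at 98.6% and was named after its value was seen.

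Markers of other cells gave the following, all with 0 genes past limma's adjusted threshold. At an unadjusted p of 0.05, Cdh5 was lower and Tubb4b higher, and no other gene of these lists was past it without the replicate block. With the block 4 of 8 airway club cell genes were lower (Scgb3a1, Chad, Scgb3a2 and Cyp2f2), as were Clic5, Cfap126 and Cdh5, while Tubb4b, Tyrobp and Fcer1g were higher, and of all genes tested 0 passed when adjusted. The genes among these that are not named elsewhere were picked after their values were seen. Alveolar type I genes had 6 of 12 tested genes negative and a median gene at 100.1% of control, with Clic5 at 84.5%. All 8 airway club cell genes were negative, with a median at 85.7% and Chad at 64.5%. Their median log2 difference, -0.22, was -0.36 without Scap_ko replicate 3, -0.15 without Scap_ko replicate 2 and -0.087 without Scap_control replicate 3. Their summed signal was 199345 to 297830 in Scap_ko and 229316 to 347835 in Scap_control lungs, highest on the arrays numbered 3 as for most lamellar body genes, and their part in those values was not tested. Endothelial genes had 9 of 10 negative and a median at 88.3%, with Cdh5 at 85.7%. Ciliated cell genes had a median at 98.0%, with Tubb4b at 119.9%. Fibroblast and lipofibroblast genes had a median at 97.7%, with Plin2 at 91.6%. Smooth muscle genes stood at 104% with Tagln at 113.2%, and macrophage and leukocyte genes at 111% with Tyrobp at 126.1%. The macrophage median, a log2 difference of 0.15, was 0.036 without Scap_ko replicate 3, 0.062 without Scap_control replicate 2 and 0.23 without Scap_control replicate 3. The medians of the type I, ciliated, fibroblast and smooth muscle lists changed sign when single arrays were left out.

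By likeness of pattern over the 6 arrays, the non-members nearest to the mean of the 8 members were Pi4k2b, Gna14, Cebpa, Slc2a4rg-ps and Stard8. The measure was the root mean square distance between log2 values centred on each gene's mean, 0.04 log2 units for Pi4k2b and 0.06 for Stard8, among 10964 genes compared. The mean was not scaled by gene, so it leaned on the members that varied most. S100g read -1.18 on Scap_ko array 2, 0.85 on Scap_ko array 3 and 1.12 on Scap_control array 3. Abca3 read 0.55 and 0.56 on Scap_control arrays 1 and 2. Cebpa read 8966, 9009.7 and 12312 in Scap_ko lungs, against 12452, 11416 and 14243 in Scap_control lungs, highest on array 3 in each group like most members. Nearest to Abca3 alone were Armc3, Herc6, Ric8a, Rmdn2 and Tecrl, at distances of 0.12 for Armc3 to 0.17 for Tecrl. All of these shared the low reading of Scap_control array 3, as Ric8a did with 1836, 2358 and 2108 in Scap_ko lungs, against 3541, 3250.0 and 2373 in Scap_control lungs. Herc6 read 489, 457.6 and 592 in Scap_ko lungs, near the brightness limit of 497.8. These likenesses rest on 6 arrays and are given as a description. The genes were picked for likeness on these same arrays, so their shared readings follow from the choice.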

How the data were processed

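Per the labels' protocols, whole-lung total RNA of 6 samples at E18.5 was purified with an RNeasy kit and biotin-labelled, and per the series design text MOE430 V2 chips were used. The authors deposited 1 table of linear intensity values for 45101 probe sets. The submitters' processing notes list RMA, but the deposited intensity values are linear, reach down to 0.2 and have the same mean of 1500 on every array after trimming 2% at either end, so they look scaled to a trimmed mean. The sources used here name no background correction, no scan date and no other batch, and detection calls were not used. Column medians over all probe sets were 513, 503.2 and 498.5 in Scap_ko and 509.2, 530.5 and 490.9 in Scap_control replicates 1 to 3. No centring was seen, and a single-channel signal has no ratio direction.

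Signals were put on the log2 scale with no pseudocount, and the 64 Affymetrix controls were dropped. Among the remaining 45037 probe sets, 34945 carried 1 symbol, 932 several and 9160 none. Each gene was represented by its brightest probe set, and 7221 genes with a mean under the median probe set (497.8) went untested. The contrast was fitted in limma 3.58.1 (lmFit, eBayes; R 4.3.3), with Benjamini-Hochberg adjustment over 10972 genes, and single values with exact permutation tests. Only the limma fit without the replicate block was tested on simulated data, with noise drawn independently for each value.

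The titles number both groups 1 to 3. Deviations from group means correlated at 0.17, 0.20 and 0.43 between same-numbered arrays, each over 0.1. The samples were therefore treated as paired by number in the pair counts and in the fit with the replicate block. The main fit, its SE, intervals and adjusted p, and the exact tests did not use the pairing. Where a fit blocked on the replicate number alters a count, both counts are given. Scap_ko 1 with Scap_control 2 reached 0.18, so the data pair mainly number 3 and the titles the rest.

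The members and the 5 pathway and 8 marker lists were chosen with earlier results of these data known. Named genes were the members, Scap, the surfactant proteins, per list up to 4 genes at an unadjusted p of 0.05 (or the 1 of smallest p), and the 5 genes of most like pattern. Alternatives were quantile normalization, a pseudocount of 50, other brightness filters, other uses of the probe sets, the replicate block, other variance models, scaling to epithelial genes and leaving out arrays.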

Additional observations from a re-analysis of the deposited data

How the results depend on the processing

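No member passed an adjusted p of 0.05 under any of the 16 alternatives, and Abca3, Lpcat1, Slc34a2 and S100g kept negative differences in all of them. The 1 gene called, Acox2, named after its value was seen, was lost with no filter on dim genes, with the filter at the 75th percentile, with every probe set as its own feature, with the replicate block, without both arrays numbered 3, with a trend and robust variance, and relative to epithelial genes, each leaving 0 called. It was lost too whichever single array was left out, with counts of 0 to 1, the 1 being Scd1 without Scap_ko replicate 2. Genes at an unadjusted p of 0.05, 650 of 10972, became 955 with the replicate block and 1000 relative to epithelial genes. The number tested changed in the other settings: 1062 of 18193 genes with no filter and 415 of 6624 with the stricter one. When every probe set was tested it was 2390 of 45037 probe sets. Members lower at an unadjusted p of 0.05, 2 of 8, became 1 when probe sets were averaged, 3 with the replicate block, and 1 to 3 when single arrays were left out. The block changed no other call on a member. In these settings 620, 955 and 510 to 766 of all 10972 genes were at that p in either direction.

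The small differences changed sign. With single arrays left out, log2 differences ran from -0.059 to 0.0209 for Ctsh, -0.20 to 0.0403 for Cxcl15, -0.11 to 0.0898 for Napsa and -0.064 to 0.11 for Muc1. Ctsh was 0.061 with probe sets averaged and 0.0205 without both arrays numbered 3. Napsa was -0.029 without both arrays numbered 3 and -0.089 relative to epithelial genes, where Muc1 was -0.057. The cause was not tested. Signal over background is not known, so the dim Lpcat1 probe sets are the least certain.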
